A study of Apis mellifera with 27 samples.

Results

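H3K4me1 regions without any other mark were stretches of the honey bee (Apis mellifera) genome at which peaks of monomethylated lysine 4 of histone H3 were called in brain, but no peak of H3K27ac, H3K27me3 or H3K4me3 was called in any library. The peaks of the 6 H3K4me1 libraries on chromosomes 1 to 16 were merged where they shared at least 1 bp, which gave 47384 regions, of which 16534 (34.9%) held a peak in at least 3 of the 6 libraries. Of these, 1887 (11.4%) overlapped no peak of the 18 lists of the other marks and are called unmarked regions here. The other 14647 are called marked regions. The peak calls of all 24 lists chose the 1887 regions, so both percentages describe that choice and are not read as results. The regions covered 706.8 kb in total.

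Monomethylation of H3K4 is laid down over enhancers and over the transcribed part of genes. In many animals, an enhancer that carries H3K4me1 together with H3K27ac is regarded as active, one with H3K4me1 and H3K27me3 as poised or repressed, and one with H3K4me1 alone as primed, whereas H3K4me3 marks the starts of active genes. A brain holds many cell types, and peak lists of whole brains do not separate them.

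The libraries came from central brains of newly eclosed adults of 3 castes: queens and workers, which are diploid females, and drones, which are haploid males. All were offspring of the same mother queen. Optic lobes were removed from all brains, and hypopharyngeal glands from those of workers. Each library was made from a pool of 5 brains, and every caste and mark had 2 libraries, here called Queen 1 and 2, Worker 1 and 2 and Drone 1 and 2. A pool carries no record of differences between single bees, and with 2 pools per caste the spread between animals of a caste was measured only coarsely.

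The number of ChIP tags behind each list was recovered from the fold and p-value at the summits. It ran from 4.20 M to 25.1 M tags (mega-tags) over the 24 lists. Among the H3K4me1 lists it was 25.1 M and 23.2 M in queen, 15.7 M and 16 M in worker, then 13.6 M and 13.1 M in drone. The queen lists thus had the most recovered tags. The mapped reads given in the paper follow another order. Both drone H3K4me1 libraries had more than both worker ones, and Drone 2 had the most for H3K4me3. The 2 drone H3K4me3 lists had the fewest recovered tags of all. Leaving both out added 3 regions to the 1887, giving 1890. As a check of the tissue, all 3 neuronal genes examined (brp, Syt1 and Syx1A) had H3K4me3 and H3K27ac peaks in all 6 libraries, and both glial genes (GlnS and Eaat-2) had H3K27ac in all 6. Of 9 royal jelly protein genes, which mark the hypopharyngeal gland, 5 had neither mark in any library. Mrjp8 had H3K27ac in all 6 and Mrjp7 in 1, while Mrjp4 had H3K4me3 in 3 and Mrjp1 in 1. Of 5 fat body genes, Vg had no peak of any mark, while HEX70b had H3K27ac in 4 libraries and H3K4me3 in 2, Hex70a had them in 1 and 2, and Hex70c and Hex110 had H3K4me3 in 2 and 1. The part of such cells in the regions was not tested. Among retinal opsins, Uvop and Blop had H3K27ac in all 6 libraries, and Uvop had H3K4me3 in 1. Lop1 had neither of these marks, and Lop2 had no peak of any mark. Of 7 troponin genes of muscle, TpnCI had both marks in all 6 libraries and 3 had neither. TpnT had H3K27ac in 4 libraries and H3K4me3 in 4, while TpnI and TpnCIIa each had them in 5 and 2. Among all these marker genes, Lop1, which encodes a long-wavelength opsin, was alone in holding an unmarked region.

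H3K4me1 without another mark was more frequent among regions called in few libraries. Both quantities entered the rule, and a wider region has more bases that a peak can overlap, so these shares are description. Another mark was missing at 17.2% of the regions with an H3K4me1 peak in 3 libraries, at 10.8% of those in 4, at 6.61% of those in 5 and at 1.84% of those in 6. Thus 1122 of the 1887 regions had a peak in 3 libraries, 534 in 4, 191 in 5 and 40 in all 6. Below the limit of 3, the share was 25.8% for regions seen in 2 libraries and 37.8% for those seen in 1. The regions were also narrow. Their median width was 332 bp, with quartiles at 280 and 430 bp and a range of 201 to 1197 bp, against a median of 399 bp where another mark was present. The share without another mark was 19.1% among regions under 300 bp and 1.32% among those of 1000 bp or more.

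**Figure D1:**
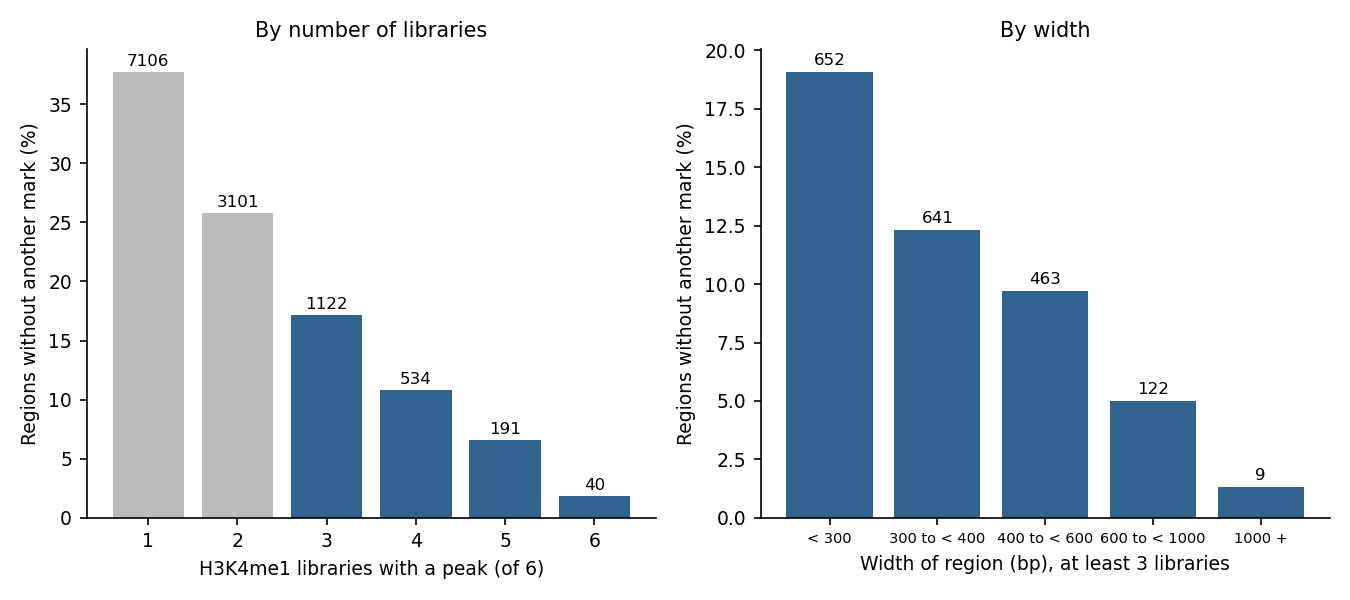
Share of merged H3K4me1 regions that overlapped no peak of H3K27ac, H3K27me3 or H3K4me3, in percent, by the number of H3K4me1 libraries with a peak (left, grey bars lie below the limit of 3 libraries) and by width of the region in bp among regions in at least 3 libraries (right). Numbers above the bars count the regions without another mark. The share fell from 37.8% with 1 library to 1.84% with 6, and from 19.1% to 1.32% with width.

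The edge of the group was set by single peak calls. Of the 16534 regions, 1207 were kept out by 1 of the 18 lists alone. In 549 of them that list was one of H3K27ac, in 251 one of H3K27me3 and in 407 one of H3K4me3. Worker 2 H3K27ac alone kept out 169 regions and Worker 1 H3K4me3 alone 147, while the 2 drone H3K4me3 lists kept out 2 and 1. The 3 regions just inside lay 17, 126 and 130 bp from a peak of another mark, and the 3 just outside shared 52, 60 and 61 bp with one. The 3101 regions without another mark that fell short by 1 library had median folds between 2.01 and 2.36 in the libraries that called them, and the 1122 just inside had 2.05 to 2.47. Leaving out Queen 1 (and asking for 3 of the other 5 libraries) left 1065 regions, and leaving out Queen 2 left 1154. Leaving out a worker or drone library left 1401 to 1456.

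The H3K4me1 peaks in these regions were weak to moderate. The fold enrichment of the summit over local background had a median of 2.17 in Queen 1, 2.07 in Queen 2, 2.41 in Worker 1, 2.34 in Worker 2, 2.21 in Drone 1 and 2.28 in Drone 2. In the regions with another mark the medians were 2.32, 2.25, 2.54, 2.50, 2.41 and 2.50 in the same order, higher in every library. At a typical summit of the unmarked regions, 73 and 76 tags were stacked in the queen libraries, 48 and 50 in the worker libraries and 52 in each drone library. The median local background was 1.69 to 2.53 times the genome-wide background of the same library. The highest fold in any of these regions was 6.36, in Drone 1, against 12.5 in regions with another mark, in Queen 1.

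Because the peak calls chose the regions, the tendency to be called was tested on libraries that had no part in the choice. Each H3K4me1 library was held out in turn, regions were rebuilt from the other 5 (a peak in at least 3), and the share with a peak in the held-out library was counted. Without another mark, 63.8% of 1065 regions were found again in Queen 1, 59.2% of 1154 in Queen 2, 32.8% of 1432 in Worker 1, 37.3% of 1401 in Worker 2, 35.4% of 1456 in Drone 1 and 31.8% of 1448 in Drone 2. With another mark, the shares were 78.9%, 77.3%, 46.2%, 54.1%, 58.1% and 57.4%. Regions without another mark were thus found again less often in all 6 libraries, by 18.6 percentage points ± 4.63 on average (SD, n = 6; exact sign-flip permutation test over libraries, two-sided, p = 0.031, adjusted p = 0.031 over 4 tests). This p is the smallest that 6 libraries can give, and the held-out regions of different libraries overlap. The difference was as large among regions of 300 to 600 bp (18.6 points). Among regions called in exactly 3 of the 5 libraries it was 12.3 points, again in all 6 libraries.

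The deficit was widest in drone. Detection without another mark was lower than with one by 22.7 and 25.6 points in the 2 drone libraries, by 15.1 and 18.1 points in the queen libraries and by 13.4 and 16.8 points in the worker libraries, so both drone values lay beyond all 4 female values. The exact permutation test over the 15 pairings of libraries into castes gave p = 0.13 for this measure, and the smallest value it allows is 0.067. Set against regions that carried H3K27ac only, which were found again at 63.5% and 64.6% in drone, the deficit was 28.1 and 32.7 points in drone and 2.47 to 10.4 points in the 4 female libraries. Of regions with H3K4me3 only, 32.4% and 29% were found again in drone and 62.3% to 89.4% in female libraries. Set against these, the drone libraries showed no deficit: unmarked regions were found there 3.05 and 2.80 points more often. The lists that define this class differed by caste. Drone H3K4me3 lists overlapped 4.25% and 2.22% of H3K4me1 regions in at least 3 libraries, and female ones 11.3% to 21.2%. How far this set the drone shares was not tested. When the same number of peaks was taken from every library of a mark, the deficit was 1.40 to 9.42 points in the female libraries and 25.8 and 26.3 points in drone. Drone lists also had the fewest recovered tags for each mark, but for no mark the fewest mapped reads in the paper. Caste and recovered tags cannot be told apart here.

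Where the held-out library did have a peak, its fold was lower without another mark in all 6 libraries, by 0.11 ± 0.023 on the log2 scale (SD, n = 6; same exact test, p = 0.031, adjusted p = 0.031). This difference did not hold under other settings. With equally long peak lists the mean was 0.019 in the other direction (p = 0.22, exact permutation test), and when another mark counted only where both libraries of a caste had it, the mean was 0.00596 in that direction (p = 0.81). Set against regions with H3K27ac only, the fold was lower by 0.018 on the log2 scale on average and in 3 of 6 libraries (p = 0.59, exact permutation test).

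**Figure D2:**
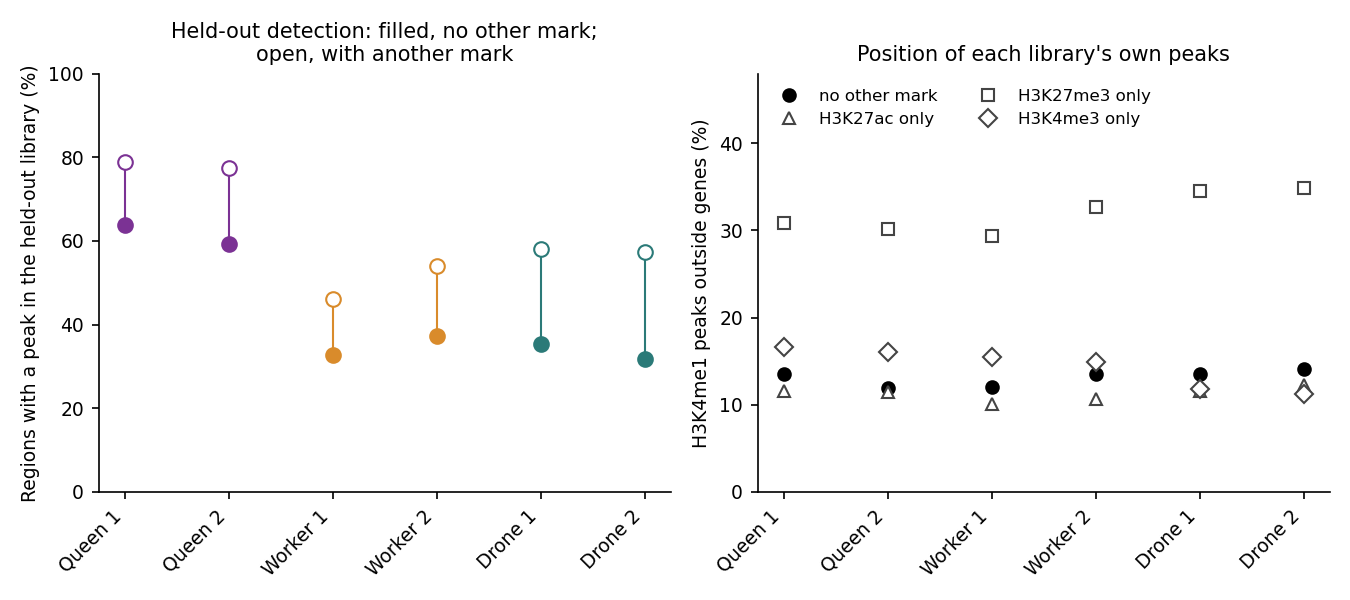
Left, share of regions (in percent) with a peak in the H3K4me1 library named on the x axis, which was held out when the regions were built: filled circles, regions without another mark; open circles, regions with another mark. Right, share of each library's own H3K4me1 peaks with a midpoint outside every annotated gene, by the other marks that overlapped the peak. Filled circles lay below open ones in all 6 libraries, by 13.4 to 25.6 points, and peaks without another mark lay outside genes in 12% to 14.1%, against 29.3% to 34.9% for peaks with H3K27me3 only.

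The castes that contributed to the unmarked regions followed from the calls that chose them and are given without a test. All 42 possible combinations of 3 or more libraries occurred. The most common were both queen libraries with Worker 1 (194 regions) or Worker 2 (184), both queen and both worker libraries (149), and both queen and both drone libraries (114). Among regions with another mark, the most common combination was all 6 libraries (2131). Of the 1887 regions, 663 (35.1%) had no peak in either drone library, 462 (24.5%) none in either worker library and 139 (7.37%) none in either queen library. The matching shares with another mark were 22.4%, 24.7% and 5.57%. With equal numbers of peaks per library, 50.2% of 1597 unmarked regions had no drone peak, 9.33% no worker peak and 9.58% no queen peak, against 26.7%, 14.6% and 12.4% of marked regions. A peak in all 3 castes was seen in 623 unmarked regions (33.0%) and in 47.3% of marked ones.

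Peaks without any other mark made up 21.1% and 18.1% of all H3K4me1 peaks in the queen libraries, 19.1% and 17.5% in the worker libraries and 16.3% and 16.7% in the drone libraries. Both drone values were the lowest. The exact permutation test over 15 pairings gave p = 0.27, and since it cannot go below 0.067 it could not call a difference. The caste means spanned 3.13 points. They spanned 7.50 points among peaks with a −log10 q of at least 5 (22.4% in queen, 20.8% in worker and 14.9% in drone) and 10.6 points with equally long peak lists (24.3%, 26.3% and 15.6%), with p = 0.13 in the same exact test for each. When each library was compared with the 6 lists of other marks of its own caste, the shares were 30.0% and 26.5% in queen, 26.8% and 24.8% in worker, then 28.5% and 27.1% in drone, where the queen range overlapped both others and the worker and drone ranges did not overlap (p = 0.47, same exact test).

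Most unmarked regions lay inside genes. Their midpoint fell in a gene body in 1604 (85.0%), at a gene end (200 bp to either side of it) in 27 (1.43%) and outside genes in 256 (13.6%). Genes covered 76.7% of the placed sequence. In regions with another mark, 80.8% lay in a gene body, 2.28% at a gene end and 16.9% outside genes, but this group was mixed. Of the 2848 regions with H3K27me3 only, 32.7% lay outside genes. Of the 5448 with H3K27ac only it was 11.4%, of the 681 with H3K4me3 only 14.8%, and of the 3121 with both H3K27ac and H3K4me3 7.37%.

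The position was tested on each library's own H3K4me1 peaks, since the rule did not use genes. Peaks without another mark lay outside genes less often than peaks with one in all 6 libraries, by 4.51 percentage points ± 0.715 on average (SD, n = 6; exact sign-flip permutation test, two-sided, p = 0.031, adjusted p = 0.031). The direction turned when they were set against peaks with H3K27ac only: they then lay outside genes 1.85 points more often, again in all 6 libraries (p = 0.031, same exact test). Against peaks with H3K27me3 only they lay outside genes 18.9 points less often. At gene ends, peaks without another mark were fewer by 0.88 points ± 0.351 in all 6 libraries (p = 0.031, adjusted p = 0.031, same exact test). The gene-end shares were 1.14% to 1.78% without and 2.14% to 2.57% with another mark. Among peaks with a −log10 q of at least 5, this difference was seen in 4 of 6 libraries (p = 0.13, exact permutation test). Against peaks with H3K27me3 only it was 0.016 points, with both drone libraries in the other direction (p = 0.88, same exact test). With gene ends widened to 1000 bp to either side, the difference from peaks with any other mark was 4.96 points in all 6 libraries (p = 0.031, same exact test).

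The unmarked regions were mostly not remote from other marks. The nearest peak of any other mark lay at a median distance of 1857 bp, with quartiles at 820 and 4259 bp and a maximum of 106041 bp. H3K27ac was nearest for 928 regions (49.2%), H3K27me3 for 553 (29.3%) and H3K4me3 for 406 (21.5%). Within 500 bp, 223 regions had a peak of another mark, and within 1000 bp 575 had one. Read by both neighbours, 558 regions (29.6%) had H3K27ac as the next mark on each side, 303 (16.1%) had H3K27me3 on each side and 122 (6.47%) had H3K4me3 on each side. The unmarked gap that held a region had a median of 6.24 kb between 2 H3K27me3 peaks, 7.88 kb between 2 H3K27ac peaks and 14.0 kb between 2 H3K4me3 peaks. On average a drone library had a peak in 56.8% of the regions between H3K27me3 peaks and in 34.8% of those between H3K4me3 peaks. The same means ran the other way in worker (43.4% and 53.7%) and in queen (76.1% and 81.1%). The H3K4me3 lists differed by caste: drone ones overlapped 4.25% and 2.22% of H3K4me1 regions in at least 3 libraries, female ones 11.3% to 21.2%. How far this set these means was not tested.

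**Figure D3:**
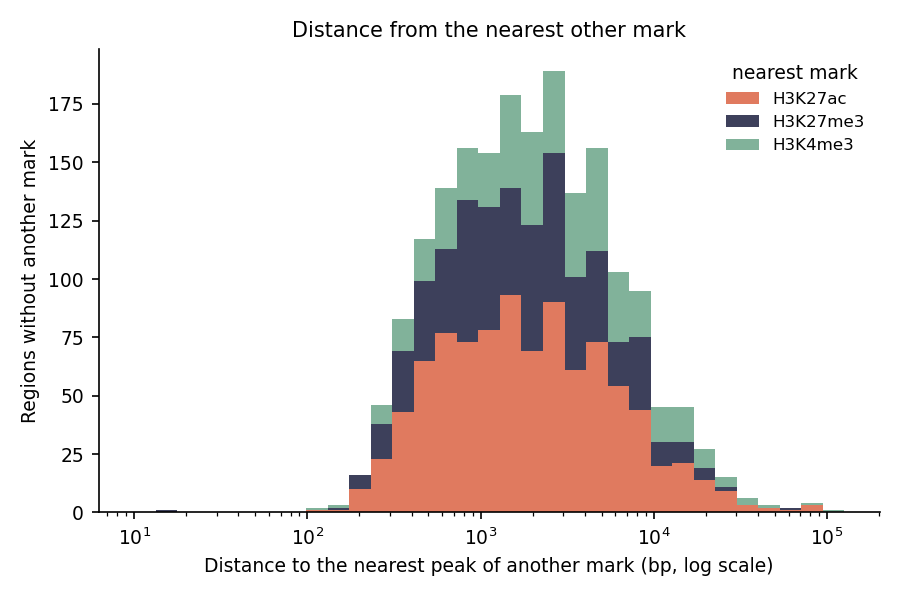
Distance in bp (log scale) from each of the 1887 H3K4me1 regions without another mark to the nearest peak of another mark, with the bars coloured by that mark. Most regions lay between 500 and 10000 bp from the nearest peak, with a median of 1857 bp, and H3K27ac was the nearest mark for 928.

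Along the chromosomes, unmarked regions were 4.51% of H3K4me1 regions on chromosome 16 and 17.1% on chromosome 12, with the other chromosomes in between. Their density ran from 5.51 per Mb on chromosome 10 to 10.8 per Mb on chromosome 12, with 8.55 per Mb over all. In order along the genome, 1040 regions stood alone between marked H3K4me1 regions and 847 (44.9%) followed each other in 339 runs of 2 to 7. The longest run held 7 regions over 42.2 kb of LOC410317 (chr11:11598606-11640798), and only 1 of its 7 regions was called in all 6 libraries. The second held 6 regions over 75.5 kb of LOC100577945, a long non-coding RNA gene on chromosome 14. None of those 6 regions had a peak in either drone library. The third, first by position of 11 runs of 5, lay in LOC408618 on chromosome 1.

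The genes that held unmarked regions were long. An unmarked region had its midpoint in 806 of the 12255 genes on placed chromosomes (6.58%), of which 696 were protein-coding and 110 were long non-coding RNA genes. Of genes of 100 kb or more, 273 of 393 (69.5%) held at least 1, and of shorter genes 533 of 11862 (4.49%). Such long genes covered 36.9% of the placed sequence and held 55.4% of the unmarked regions but 31.6% of the marked ones. The median host gene of an unmarked region was 166 kb long, against 64.8 kb for regions with H3K27ac only and 111 kb for those with H3K27me3 only. It was 114 kb with H3K4me3 only, 132 kb with H3K27me3 and H3K4me3 and 34.4 kb with H3K27ac and H3K4me3. With H3K27ac and H3K27me3 it was 72.5 kb, and with all these marks 78.8 kb. Genes of 100 kb or more held 44.1% of regions with H3K4me3 only and 21.9% of those with H3K27ac and H3K4me3. Counted per length, there were 4.49 unmarked regions per Mb in genes under 10 kb and 13.7 per Mb in genes of 200 kb or more. Of the H3K4me1 regions in these 2 classes of genes, 6.50% and 21.4% had no other mark.

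The host genes themselves were not free of other marks. Among the 273 genes of 100 kb or more with an unmarked region, 94.5% had H3K27ac, 96.7% H3K4me3 and 75.1% H3K27me3 peaks somewhere in the gene in at least 3 libraries. In the 103 genes of 100 kb or more with H3K4me1 regions but no unmarked one, the shares were 87.4%, 93.2% and 63.1%. These 103 genes had a median length of 145 kb and the 273 one of 183 kb, so length was not matched. The 10 genes with the most unmarked regions held 153 of them (8.11%), from 12 in LOC408862 to 18 in LOC552709. In LOC552709, which spans 548 kb, 18 of 43 H3K4me1 regions had no other mark. The highest density among genes with at least 5 was in LOC408826, where 9 of 16 regions over 97.4 kb were unmarked, with 7 of the 9 called in each drone library and 4 to 6 in each female one. The genes leading both rankings are known in the gene table by identifier only.

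**Figure D4:**
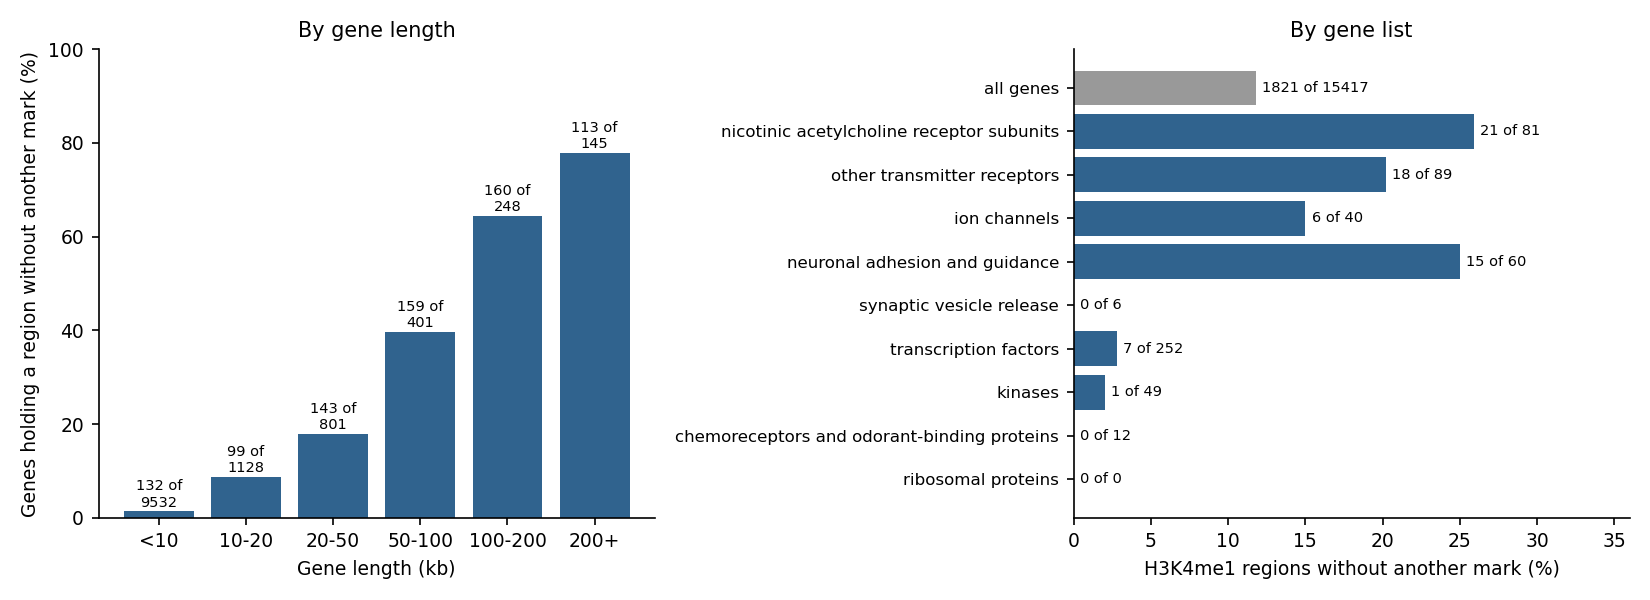
Left, share of genes in percent that held at least 1 H3K4me1 region without another mark, by gene length in kb. Right, share of the H3K4me1 regions in each gene list that had no other mark, with all genes in grey and the counts beside the bars (a region in overlapping genes counts once for each). The share of genes rose from 1.38% under 10 kb to 77.9% at 200 kb or more. On the right, it was 25.9% of regions in nicotinic receptor genes and 2.78% in transcription factor genes. Ubx and Antp held 61 and 54 of the 252 regions in transcription factor genes. The lists were not matched in gene length.

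Grouped by role, the share of H3K4me1 regions without another mark ranged from 0% to 25.9% between the gene lists, which are described here without a test. Over all genes, 11.8% of H3K4me1 regions had no other mark, at 9.85 regions per Mb. The nicotinic acetylcholine receptor subunits form the channels that carry fast excitatory transmission in the insect brain. Of 10 subunit genes, 3 held 21 unmarked regions among 81 (25.9%, 19.6 per Mb). Of 16 genes for other transmitter receptors, 6 held 18 of 89 regions (20.2%, 12.9 per Mb). Of 7 genes of neuronal adhesion and guidance, 4 held 15 of 60 (25%, 10.5 per Mb), and of 5 ion channel genes, 2 held 6 of 40 (15%). The 3 nicotinic genes with unmarked regions were 244 to 350 kb long, and the median adhesion gene 223.5 kb. Over all genes of 200 kb or more, 21.4% of H3K4me1 regions had no other mark, at 13.7 per Mb. Among 252 H3K4me1 regions in 25 transcription factor genes, 7 (2.78%, 3.76 per Mb) were unmarked, in 4 genes. Ubx and Antp, both on chromosome 16, held 61 and 54 of the 252, with 0 unmarked in each. They are 147 and 156 kb long. Mad, of 409 kb, held 22 regions with 0 unmarked. Over all genes of 20 to under 50 kb, 6.09% of H3K4me1 regions had no other mark. In genes of 100 to under 200 kb it was 15.5%, and in those of 200 kb or more 21.4%. Of 12 kinase genes, For, which encodes the cGMP-dependent protein kinase of the foraging locus, held 1 of the list's 49 regions. No unmarked region lay in the 4 genes of synaptic vesicle release (0 of 6 regions), the 54 of chemoreceptors and odorant-binding proteins (0 of 12) or the 7 of ribosomal proteins, which had no H3K4me1 region. All 20 list genes with an unmarked region were at least 20 kb long, and the lists were not matched in gene length: the median was 223.5 kb for adhesion genes, 41.4 kb for nicotinic subunits and 26.7 kb for transcription factors.

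The counts per gene depended on the number of libraries asked for. Of 36 genes followed, the count moved by over 1.5 times in 31 with a limit of 2 libraries, in 33 with a limit of 4, in 25 without Queen 1 and in 21 without Queen 2. In nAChRa7, for example, 21 regions were unmarked with a limit of 2 and 4 with a limit of 4. In nAChRa7, 9 of 13 H3K4me1 regions had no other mark, in nAChRa6 7 of 21 and in nAChRa4 5 of 21, whereas none of the 24 regions of nAChRa3 was unmarked. The 9 regions of nAChRa7 had 8 peaks in each queen library, 6 and 8 in the worker libraries and 1 and 0 in the drone libraries. Of the 9, 8 had no drone peak, and the region at chr14:1828342-1828624 had 1 in Drone 1, with a fold of 2.69, and a fold of 2.05 in Worker 2. The clearest lay at chr14:1962645-1962883, 239 bp wide and 4023 bp from the nearest other mark, an H3K4me3 peak. Its folds were 3.46 and 3.19 in queen and 4.70 and 3.97 in worker, from 61, 60, 56 and 46 summit tags, and it had no drone peak. The gene overlaps LOC113219219 in 7 of the 9 regions, so its regions cannot be given to nAChRa7 alone.

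In nAChRa6, 1 of the 7 unmarked regions was called in all 6 libraries, at chr2:3841804-3842100. Folds there were 3.87 and 2.76 in queen, 3.60 and 3.28 in worker, then 2.73 and 3.27 in drone, from 87, 71, 50, 45, 44 and 45 tags in that order. The nearest peak of another mark was H3K27me3, 5228 bp away. Each fold is a ratio to the local background of its own library, so these folds do not rank the castes. In nAChRa4, a region at chr7:7695025-7695398 was also called in all 6, with folds of 1.49 and 2.02 in queen, 3.0 and 2.17 in worker, then 1.93 and 2.02 in drone, weaker than that of nAChRa6 in every library.

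Nrx-1 encodes neurexin, a presynaptic adhesion protein, and its partners the neuroligins sit on the postsynaptic side. Nrx-1 had 9 unmarked regions among 24, with peaks in 9 and 7 of them in the queen libraries, 7 and 4 in the worker libraries and 3 and 1 in the drone libraries. They lay 536 bp or more from H3K27ac, and 5 of the 9 were called in 3 libraries. At chr5:2448806-2449172 the folds were 3.52 and 4.08 in queen and 2.81 and 2.77 in worker, without a drone peak. NLG-3, a neuroligin gene of 249 kb, had 3 H3K4me1 regions in all and each was unmarked, with peaks in 1 and 3 of them in queen, 1 and 1 in worker, then 2 and 2 in drone. NLG-5 had 2 of 11, with no drone peak in either.

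Among receptors that act through G proteins, Glurb, a metabotropic glutamate receptor gene, had 8 unmarked regions among 21. All 8 had a peak in both queen libraries, 5 and 4 in the worker libraries and 1 and 3 in the drone libraries. Of the 8, 5 lie also in LOC411843, which overlaps Glurb. The dopamine receptor gene DopR2 had 3 H3K4me1 regions, all unmarked, with peaks in 3 and 3 in queen, 2 and 1 in worker, then 1 and 2 in drone. The serotonin receptor genes 5-HT2beta, 5-ht7 and 5-HT2alpha held 3 of 7, 2 of 5 and 1 of 1. Another dopamine receptor gene, Dop1, had 13 H3K4me1 regions, and each carried another mark. Among ion channels, Amih, which encodes a hyperpolarization-activated cation channel, had 4 of 19 and the chloride channel gene pHCl 2 of 13, while Cac and Para, the calcium and sodium channels of the list, had 0 of 6 and 0 of 2.

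Unmarked regions lay in 4 of the 25 transcription factor genes. E75, an ecdysone-induced nuclear receptor, had 3 of 15, E74 2 of 19, the ecdysone receptor gene Ecr 1 of 17 and Mblk-1, first described in the mushroom bodies, 1 of 6. Usp and Br-c, also of the ecdysone response, had 0 of 10 and 0 of 2. The 3 regions of E75 had more peaks in drone (3 and 2) than in worker (0 and 1), with 3 and 1 in queen. Both regions of E74 were called in both drone libraries and 1 in each female library. Over all 1887 unmarked regions, the drone libraries had a peak in 50.2% and 47.7% and the worker libraries in 49.0% and 53.4%. The counts in E75 and E74 rest on only 3 and 2 regions.

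**Figure D5:**
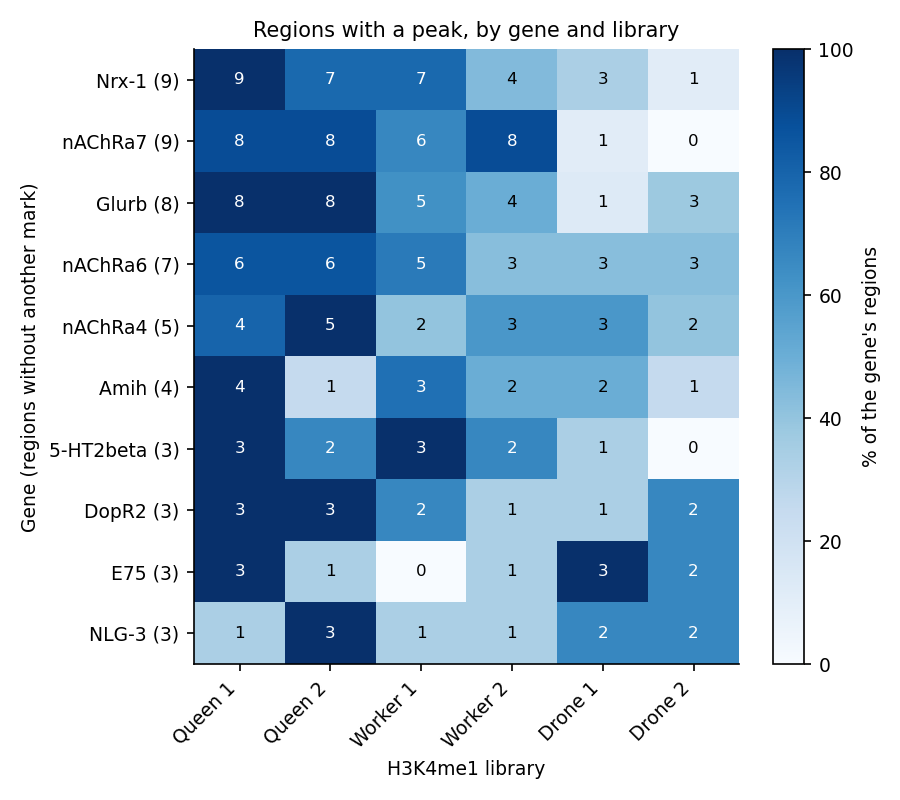
Number of H3K4me1 regions without another mark that had a peak in each library, for the 10 genes with a name and at least 3 such regions (the total is given in brackets). Colour gives the percentage of the gene's regions. In nAChRa7 the queen and worker libraries had peaks in 6 to 8 of 9 regions and the drone libraries in 1 and 0, and in E75 the drone libraries had 3 and 2 of 3 and the worker libraries 0 and 1.

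Of the 40 regions called in all 6 libraries, those with the highest folds in their weakest library lay in gene bodies. The first, in LOC102653951 at chr15:514566-514966, had folds of 3.46 and 4.19 in queen, 3.63 and 3.80 in worker, then 3.09 and 2.96 in drone, and lay 24533 bp from the nearest peak of another mark. It was the most remote of the 10 highest. At Cyp4g11, a cytochrome P450 gene, a region of 298 bp (chr16:2832658-2832955) had folds of 3.58 and 2.65 in queen, 2.91 and 3.25 in worker, then 4.02 and 3.67 in drone, with H3K27ac, H3K27me3 and H3K4me3 peaks 1102, 1088 and 1091 bp away. The 10 were otherwise spread over 8 chromosomes, with folds between 2.32 and 4.19.

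Regions called in all 4 libraries of 2 castes and in none of the third numbered 149 without drone, 114 without worker and 15 without queen. These were 7.90%, 6.04% and 0.79% of the unmarked regions. The same patterns made up 8.73%, 9.51% and 0.91% of the marked regions, so none was more frequent without another mark. The strongest of the 149 lay at the end of LOC100577680 (chr8:1524311-1524582), with folds of 3.68 and 4.08 in queen and 3.96 and 3.63 in worker. The strongest of the 114, at the end of LOC107965314 (chr12:9146621-9146859), had 4.47 and 4.50 in queen and 3.85 and 4.02 in drone. The strongest of the 15 lay outside genes at chr11:15455618-15455867, with 4.70 and 4.31 in worker and folds of 4.02 and 4.36 in drone. In each of these the missing caste had no call at all at the authors' threshold, and no count of its reads was analysed here, so a signal under the threshold cannot be told apart from none.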

How the data were processed

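Chromatin immunoprecipitation and sequencing was analysed from 24 peak lists (4 marks, 3 castes, 2 libraries each), grouped by the caste, antibody and replicate number in the sample titles. The 3 input libraries were not analysed here. The authors mapped reads with BWA (version 0.7.17) to Amel_HAv3.1 and called peaks in each library with MACS2, with a genome size of 270000000 bp. The control used in the calls is not given in the sources used here. The deposited lists give for each peak the fold enrichment of its summit, a ratio to local background, and the −log10 of its p-value and q-value, and they end near a −log10 q of 2. Coverage was not analysed, so missing peaks are missing calls, not measured zeros.

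Summit tags and tag totals were recovered by solving the fold and the Poisson p-value together. The pileup came out whole, within 0.05, for at least 99.995% of peaks of every list with a −log10 p below 250. The totals took the shortest peak as the fragment length. Counting error and the spread between 2 pools limit precision. Regions were merged with Python (version 3.11.15) and numpy on the 16 placed chromosomes. Gene spans came from a RefSeq table of Amel_HAv3.1 without strand, exons or gene descriptions, so gene ends (200 bp around either end) stand for starts, a gene and its antisense partner cannot be told apart, and the 9 gene lists, planned by description, were matched by symbol. Sequences were not used here.

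The members and lists were chosen with earlier results of these data known. The rule used the calls of all 24 lists, so calls, folds and gene counts of the regions are described without tests. The 4 tests used held-out libraries or gene positions, with exact sign-flip permutation over 6 libraries (64 patterns, two-sided, Benjamini-Hochberg over 4). Castes were compared by exact permutation over 15 pairings. In each of the 4 tests, the same lists of other marks divided the regions or peaks for all 6 H3K4me1 libraries. The spread between pools of the other marks thus did not enter these p-values, and the 6 values, which pool the castes, are not independent. All 6 had the same sign in each test, so p was the smallest possible and reflects that agreement in sign. Functions were tested on simulated data. Genes were named by most unmarked regions (10), by density (10, at least 20 kb and 5 regions), and by list. Genes with a name rather than an identifier were added after their values were seen. Regions were named by the highest lowest fold, by caste pattern, by run length and by closeness to the limits of the rule. Alternatives varied the number of libraries, the q-value, the number of peaks per library, the definition of another mark, the margin, width and gene set, and left out each library. The comparisons with regions of 1 other mark, most fits with the replicate number as a block, and leaving out both drone H3K4me3 libraries, were chosen after seeing the data.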

Additional observations from a re-analysis of the deposited data

How the results depend on the processing

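Differences are given as without minus with another mark. The held-out detection difference was −10.9 points against regions with H3K27me3 only (exact permutation p = 0.0625) and −17.3 against H3K4me3 only (p = 0.125), and it stayed negative with p = 0.031 under the other changes of regions or peaks. The held-out fold difference on the log2 scale was −0.0096 with peaks of −log10 q of at least 5, −0.018 against H3K27ac only, and of the opposite sign with equal numbers of peaks (0.019), with consensus peaks of other marks (0.0060) and against H3K27me3 only (0.10). The intergenic difference was 1.85 points against H3K27ac only and −1.25 against H3K4me3 only. The gene-end difference was −0.74 with the stricter q and −0.016 against H3K27me3 only. The range of caste means of the share without another mark was 3.13 points, 7.50 with the stricter q and 10.6 with equal numbers of peaks. The cause of these changes was not tested. Leaving out one library at a time gave −19.7 to −17.2 (detection), −0.12 to −0.11 (fold), −4.73 to −4.32 (intergenic), −0.97 to −0.80 (gene end) and 1.87 to 4.66 (castes). For the first 4, p was then 0.0625, the smallest that 5 libraries can give.

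The number of unmarked regions, 1887, was 4988 with a peak in at least 2 libraries, 765 in at least 4, 231 in at least 5 and 40 in 6, 3579 with both libraries of a caste, 4042 when only consensus peaks of other marks counted and 797 with the stricter H3K4me1 q. Leaving out one library at a time gave 1065 to 2056.

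The labels do not say that a replicate number marks a shared batch or day. With the number as a replicate block, the means were unchanged by construction (−18.6 for detection, −0.11 for fold, −4.51 for the intergenic and −0.88 for the gene-end share), the 2 blocks agreed in sign for each, and p was 0.5, the smallest that 2 blocks can give. For the castes, permuted within replicate numbers in 36 arrangements, p was 0.17, also the smallest possible. Apart from detection, these fits were added after seeing the data.

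The drone lists had the fewest recovered tags for each mark. H3K4me1 peaks numbered 23524 and 20914 in the queen lists, 12331 and 13933 in the worker lists and 18943 and 21597 in the drone lists. The drone lists thus held more H3K4me1 peaks than the worker lists from fewer recovered tags. A peak under the threshold in a list cannot be told apart from a missing one. The part of depth in these calls was not tested.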

Other observations

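On scaffolds not placed on a chromosome, which the rule left out, the peaks of the 6 H3K4me1 libraries merged into 248 regions. Of these, 126 had a peak in at least 3 libraries, and 7 of the 126 overlapped no other mark.

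With a whole caste held out and regions built from the 4 libraries of the other castes (a peak in at least 3), unmarked regions were found again at 57.4% in each queen library, at 29.2% and 35.0% in the worker libraries and at 28.9% and 23.7% in the drone libraries. Marked regions were found again at 80.1% and 78.8%, at 44.0% and 53.3% and at 54.1% and 51.9%. These shares were lower without another mark in all 6 libraries and were not tested further.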
